A study of Homo sapiens with 12 samples.

Results

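The genes of cholesterol synthesis and sterol transport were followed across HK-2 cells exposed to 3 nephrotoxic drugs. The set held 32 of the 58735 genes in the deposited count table, each found by its gene name: 18 enzymes from acetoacetyl-CoA to cholesterol, 5 genes of the sterol-sensing SREBP system, 2 genes of sterol transfer and uptake control, 5 genes of the LXR receptors and sterol efflux, and 2 fatty acid enzymes. HK-2 is an established, immortalized line of human proximal tubular epithelial cells. Poly(A)-selected RNA was sequenced from 12 samples, 3 in each of 4 groups. The control group received water (H2O), and the drug groups received the contrast agent iohexol at 75 mg I/mL, the platinum drug cisplatin at 5 μM or the glycopeptide antibiotic vancomycin at 4 mM, each for 48 h. Cells of all groups grew in the same medium with fetal bovine serum, which carries lipoproteins. Each drug was given at 1 dose and 1 time, and the doses were not matched for toxicity. The labels do not say whether the 3 samples of a group came from separate cultures, so the p-values measure the spread between these samples, which may be technical.

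Animal cells make cholesterol from acetyl-CoA through mevalonate, isoprenoid diphosphates, squalene and lanosterol. When sterol in the endoplasmic reticulum is low, SCAP escorts the SREBP transcription factors to the Golgi for cleavage, and the released factors switch on the synthetic enzymes, while INSIG proteins hold SCAP back when sterol is plentiful. When sterol is in excess, oxysterols activate the LXR receptors, which induce efflux genes such as ABCA1, ABCG1 and APOE and the uptake inhibitor MYLIP.

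Promoter windows running from 250 bases before to 50 bases after a RefSeq start (GRCh38.p14) were at hand for 27 of the 32 members, in 38 windows. The windows of SREBF2 and INSIG1 are shown because these genes encode central parts of the sterol feedback, that of SREBF2 being the only member window with a sterol element core and INSIG1 having passed the stricter fold rule with cisplatin and vancomycin. Capitals mark 3 motifs on either strand: the core of the sterol regulatory element, TCACNCCAC (N is any base), the reverse CCAAT box ATTGG and the GC box GGGCGG.
SREBF2, chr22:41832855-41833154, plus strand: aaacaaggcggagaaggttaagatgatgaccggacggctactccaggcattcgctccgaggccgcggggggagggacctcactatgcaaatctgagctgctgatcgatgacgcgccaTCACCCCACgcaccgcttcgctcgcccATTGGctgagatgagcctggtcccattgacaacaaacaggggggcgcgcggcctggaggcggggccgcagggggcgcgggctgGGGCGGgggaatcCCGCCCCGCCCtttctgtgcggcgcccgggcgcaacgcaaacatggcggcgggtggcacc
INSIG1, chr7:155297628-155297927, plus strand: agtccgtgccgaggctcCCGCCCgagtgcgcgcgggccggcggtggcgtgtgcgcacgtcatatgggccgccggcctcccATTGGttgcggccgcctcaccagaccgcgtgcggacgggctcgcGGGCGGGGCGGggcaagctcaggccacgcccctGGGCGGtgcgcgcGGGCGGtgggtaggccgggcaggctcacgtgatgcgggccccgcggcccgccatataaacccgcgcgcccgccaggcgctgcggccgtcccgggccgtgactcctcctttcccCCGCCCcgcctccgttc
The SREBF2 window held the sterol element at position -133 and an ATTGG at position -106 from the start, followed by 3 GC boxes. The INSIG1 window held an ATTGG at position -170 and 6 GC boxes, and in each window 2 GC boxes overlapped by 1 base. The sterol element core was found in 1 of the 38 member windows, that of SREBF2, or 2.63%, against 1.13% of all 35116 windows. ATTGG was found in 60.5% of the member windows against 34.6% of all windows, and GGGCGG in 84.2% against 45.0%. Some members had several windows, and those of SC5D and of INSIG2 overlapped and shared a site. These shares thus count some sites more than once. By gene, ATTGG was in 20 and GGGCGG in 26 of the 27 members with a window. A direct repeat element of LXR and a palindromic E-box of SREBP, searched on both strands, were in none of the member windows, and in 0.0199% and 0.0228% of all windows. These matches describe letters in short windows and are not evidence of binding.

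The samples held 14057282 to 18177109 counts each, and 31 of the 32 members passed the filter on low counts in every comparison. The remaining member, ABCG1, a sterol efflux transporter, had 0 to 2 counts in every library and was not tested, and the limit that a count of 0 allows was 0.177 to 0.218 CPM (counts scaled by the total count and the TMM factor of each library). Iohexol replicate 3 stood apart from its group: counts differed between it and the other 2 iohexol samples by 17.5 and 16.5 times sampling noise (chi-square per degree of freedom over genes), against 3.82 between those 2. In the other groups the same measure ran from 2.34 to 13.1, so no sample was a copy of another. Without this library, MVK, FDPS, CYP51A1, SREBF1 and NR1H2 also passed as higher with iohexol (edgeR's quasi-likelihood test, adjusted p under 0.05) and INSIG2 no longer passed, and the other members kept their call or lack of one.

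Compared per gene length (FPKM, CPM per kilobase), the members covered a wide range in untreated cells. SCD, which makes monounsaturated fatty acids, was the most abundant with 137 ± 2.64 FPKM (SD, n = 3), followed by the fatty acid synthase FASN with 60.9 ± 6.33 and the sterol methyl oxidase MSMO1 with 42.6 ± 4.55. Among the enzymes of cholesterol synthesis, SQLE, which epoxidizes squalene, had 38.6 ± 1.54 FPKM and HMGCS1, which makes HMG-CoA, 27.0 ± 0.716. At the low end were the LXR receptor NR1H3 with 0.789 ± 0.033 FPKM and the sterol reductase TM7SF2 with 0.68 ± 0.0161. With vancomycin APOE became the most abundant member, at 348 ± 38 FPKM.

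**Figure D1:**
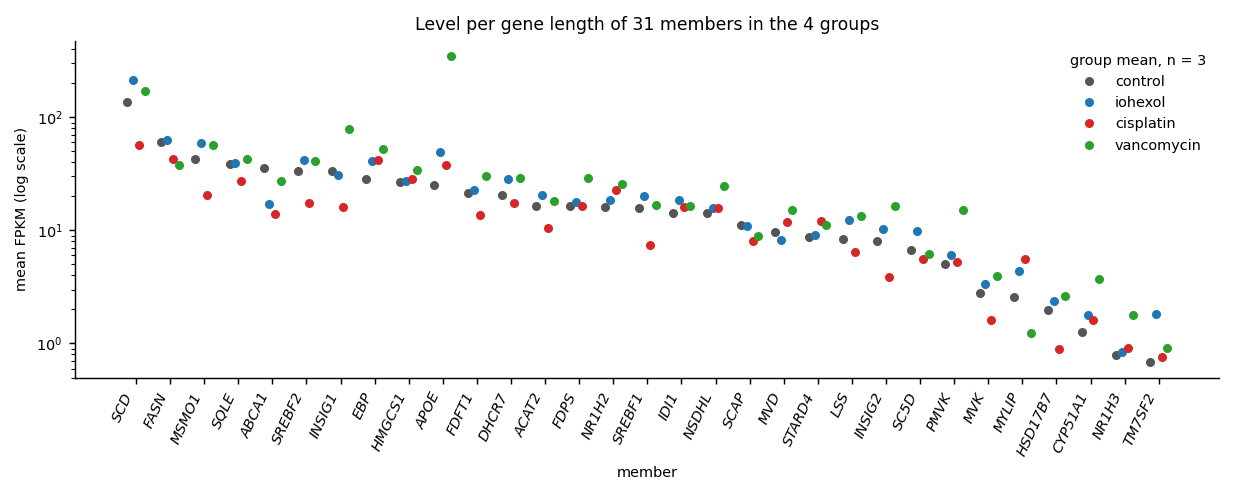
Mean FPKM (log scale, n = 3 samples per point) of the 31 members that passed the low-count filter, in the control, iohexol, cisplatin and vancomycin groups, ordered by the control level. APOE with vancomycin lies above all other points, and cisplatin is the lowest of the 4 groups for SCD, SREBF2 and MSMO1.

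Iohexol up-regulated many of the sterol genes by small amounts. Of the 31 members tested, 13 were higher than in the control group (edgeR's quasi-likelihood test, adjusted p under 0.05), where 11.2% of all 15657 genes were. One efflux gene was the single lower member (ABCA1), with 9.77% of all genes lower, and 17 did not pass. The median log2 fold change of the members was 0.30, against 0.01 for all genes tested. DEGs, which also had a log2 fold change beyond 1, were TM7SF2 and APOE, both higher, and ABCA1, lower, where 4.02% and 1.25% of all genes were up- and down-regulated DEGs. Samples of the 2 groups did not overlap, with iohexol above, for 14 members (18.6% of all genes), and with iohexol below for 1 (19.4%). Without iohexol replicate 3, 17 members were higher (14.8% of all genes), and the number was 6 to 8 without control replicate 2, control replicate 3, iohexol replicate 1 or iohexol replicate 2. In those 4 fits the number of all genes higher fell too, from 1754 to between 1027 and 1197. TM7SF2, APOE, SCD, MYLIP and ABCA1 passed whichever sample was left out, whereas ACAT2, IDI1, LSS, MSMO1, EBP, SC5D, DHCR7, SREBF2 and INSIG2 each did not pass without at least 1 of those 4 samples.

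Cisplatin acted mostly in the other direction, and the SREBP system had the lowest median log2 fold change of the member groups. Lower than in the control group were 16 of the 31 members, with 30.6% of all 15876 genes lower. Higher were 6 members, with 29.2% of all genes higher, and 9 did not pass. The members' median log2 fold change was -0.27 against 0.01 for all genes. The 7 down-regulated DEGs were ABCA1, SCD, HSD17B7, SREBF1, MSMO1, INSIG1 and INSIG2 (8.72% of all genes), and the single up-regulated DEG was MYLIP (7.62%). Cisplatin samples lay below all control samples for 16 members (32.5% of all genes) and above them for 8 (32.6%). Scaling by library size alone moved the median of all genes to 0.23 and that of the members to -0.05, a gap between them of -0.28 as before, and with it 11 members were higher and 14 lower, where 43.6% of all genes were higher and 20.4% lower.

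Vancomycin raised most of the module. Higher than in the control group were 21 members, with 29.0% of all 15819 genes higher, 4 were lower (28.8% of all genes), and 6 did not pass. The median log2 fold change of the members was 0.39, against -0.01 for all genes. APOE, PMVK, CYP51A1, INSIG1 and NR1H3 were up-regulated DEGs (10.8% of all genes) and MYLIP a down-regulated one (7.65%). INSIG2 stopped just short of that rule, with a log2 fold change of 1.00. Vancomycin samples lay above every control sample for 22 members (33.9% of all genes) and below for 4 (29.3%). The 3 comparisons used the same 3 control samples, so they are not independent of each other, and their values are given side by side.

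The 18 synthetic enzymes, from ACAT2 to DHCR7, gave a summed level of 1095, 1104 and 1061 CPM in the control samples. The sums were 1372, 1275 and 1285 CPM with iohexol, 939.6, 916 and 930.5 CPM with cisplatin, and 1463, 1553 and 1481 CPM with vancomycin. The 4 groups did not overlap, with cisplatin lowest and vancomycin highest, at 0.855, 1.21 and 1.38 times the control mean for cisplatin, iohexol and vancomycin. This order depended in part on the TMM factors. As CPM by the library total alone, without those factors, the sums were 1035 to 1061 in control and 1028 to 1059 with cisplatin, which overlapped, and 1313 to 1413 with iohexol and 1313 to 1374 with vancomycin, which also overlapped.

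The 7 enzymes of the mevalonate steps carry acetoacetyl-CoA to farnesyl diphosphate. With vancomycin 5 of them rose, where 29.0% of all genes did, and the median log2 fold change was 0.44 against -0.01 for all genes. The largest change was that of PMVK, which phosphorylates phosphomevalonate, with 3.34, 9.35 and 6.51 CPM in control and 17.7, 22.8 and 18.2 CPM with vancomycin, a log2 fold change of 1.55 ± 0.21 (SE, edgeR adjusted p = 9.86e-07). FDPS, which makes farnesyl diphosphate, rose by 0.78 ± 0.09, MVD, which makes isopentenyl diphosphate, by 0.61 ± 0.11, MVK by 0.44 ± 0.13 and HMGCS1 by 0.30 ± 0.09. ACAT2 and IDI1 did not pass with vancomycin, at 0.10 and 0.15.
With cisplatin, MVK fell by 0.80 and ACAT2, the cytosolic thiolase at the start of the pathway, by 0.63 on the log2 scale, and MVD rose by 0.31 ± 0.10. HMGCS1, FDPS, PMVK and IDI1 did not pass, and the 95% interval of the HMGCS1 change was -0.03 to 0.21. Iohexol raised ACAT2 by 0.34 ± 0.09 and the isomerase IDI1 by 0.39 ± 0.11, and the other 5 enzymes did not pass, with HMGCS1 at 0.04 (95% interval -0.15 to 0.24).
ACAT2 overlaps TCP1 on the opposite strand, which had 5.67 times its counts. TCP1 changed by 0.22 with cisplatin and -0.28 with vancomycin, and did not pass with iohexol (-0.22, edgeR adjusted p = 0.0822). These values were opposite in sign to those of ACAT2, of which the vancomycin one did not pass. MVK overlaps MMAB, which had 0.979 times its counts. MMAB changed by -0.995 with cisplatin and 0.60 with vancomycin, and did not pass with iohexol (0.03, edgeR adjusted p = 0.906). How strand was treated in the counting is not given in the sources used here, so reads of such partners cannot be told apart.

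The 11 enzymes from squalene synthesis to cholesterol did not all move alike. LSS, which cyclizes squalene epoxide to lanosterol, MSMO1, which removes the methyl groups at carbon 4, and DHCR7, the last reductase of one branch, were higher with iohexol, lower with cisplatin and higher with vancomycin. MSMO1 (chr4:165327623-165343160) had 138, 118 and 114 CPM in control, 167, 150.3 and 197 with iohexol, 58.8, 57.4 and 61.1 with cisplatin and 172, 178 and 147 with vancomycin. All iohexol and vancomycin samples were above the control samples and all cisplatin samples were below them. MSMO1 thus changed by log2 values of 0.49 ± 0.11 (edgeR adjusted p = 0.0102), -1.06 ± 0.08 (adjusted p = 3.52e-09) and 0.38 ± 0.10 (adjusted p = 0.00175).
LSS had 51.9, 61.0 and 67.9 CPM in control, 102, 96.5 and 71.1 with iohexol, 44.5, 46.0 and 48.3 with cisplatin and 94.2, 92.3 and 104 with vancomycin. LSS changed by 0.60 ± 0.14, -0.38 ± 0.09 and 0.64 ± 0.10, and DHCR7 by 0.50 ± 0.13, -0.24 ± 0.07 and 0.47 ± 0.09. With library size alone as the scale, the cisplatin changes of LSS (-0.17) and DHCR7 (-0.02) did not pass, and that of DHCR7 did not pass in the fit of all 12 samples either (-0.23, edgeR adjusted p = 0.0674). Without iohexol replicate 3, LSS rose by 0.74 with iohexol (edgeR adjusted p = 9.72e-06). Without iohexol replicate 1, its iohexol change was 0.49 and did not pass (adjusted p = 0.0561).

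FDFT1, the squalene synthase, and HSD17B7, a sterol ketone reductase, were lower with cisplatin and higher with vancomycin. FDFT1 changed by -0.64 ± 0.07 and 0.46 ± 0.09, and HSD17B7 by -1.14 ± 0.16 and 0.38 ± 0.15, the latter not passing by DESeq2 (adjusted p = 0.0521). Of the 31-base words of HSD17B7 transcripts, 35.8% also occur in other genes, most of them in HSD17B7P2. SQLE, the epoxidase that is a slow step of the pathway, fell by 0.49 on the log2 scale with cisplatin, and did not pass with iohexol or vancomycin, where it stood at 0.05 and 0.11. The 95% intervals of those 2 changes were -0.12 to 0.23 and -0.05 to 0.28.

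EBP, a sterol isomerase, was the single enzyme of the 18 that was higher with each drug. EBP (chrX:48521158-48528716) had 60.7, 74.8 and 70.9 CPM in control, 113, 102 and 80.4 with iohexol, 97.2, 99.4 and 109 with cisplatin and 113, 136 and 127 with vancomycin. Every drug-treated sample was above every control sample, and iohexol replicate 3 was the lowest of the treated ones. EBP rose by log2 values of 0.54 ± 0.13, 0.56 ± 0.08 and 0.82 ± 0.10 (edgeR adjusted p = 0.0125, 8.86e-06 and 1.36e-07), and by 0.67 with iohexol when replicate 3 was left out. Without iohexol replicate 1, its iohexol change was 0.42 and did not pass (edgeR adjusted p = 0.0603).

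CYP51A1, the lanosterol demethylase, changed most with vancomycin among the 11 enzymes from squalene synthesis to cholesterol. CYP51A1 (chr7:92112151-92134803) had 3.70, 4.45 and 5.39 CPM in control, 6.91, 6.39 and 5.81 with iohexol, 4.72, 6.03 and 6.44 with cisplatin and 13.8, 13.1 and 12.8 with vancomycin. The vancomycin samples stood clear of all others, at a log2 fold change of 1.51 ± 0.17 (edgeR adjusted p = 5.75e-08), while iohexol (0.51, adjusted p = 0.079) and cisplatin (0.34, adjusted p = 0.133) did not pass. Of the 31-base words of its transcripts, 82.6% also occur in other genes, nearly all in an overlapping gene model on the same strand that had 0 counts, so part of its reads may have gone uncounted. NSDHL, which acts beside MSMO1, also rose with vancomycin (0.76 ± 0.11) and did not pass with the other 2 drugs.

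TM7SF2 and SC5D, late sterol reductase and desaturase genes, were higher with iohexol and did not pass with cisplatin or vancomycin. TM7SF2 had 2.32, 2.26 and 2.37 CPM in control and 6.84, 8.76 and 3.01 with iohexol, a log2 fold change of 1.44 ± 0.34 (edgeR adjusted p = 0.0105). Iohexol replicate 3 was much nearer to the control samples than the other 2 were, and without it the log2 fold change was 1.77 (adjusted p = 3.59e-06 by edgeR). TM7SF2 overlaps VPS51 on the same strand, which had 12.8 times its counts and did not pass with iohexol (0.18, edgeR adjusted p = 0.334). SC5D rose by 0.58 ± 0.15, and stood at -0.27 with cisplatin and -0.14 with vancomycin.

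**Figure D2:**
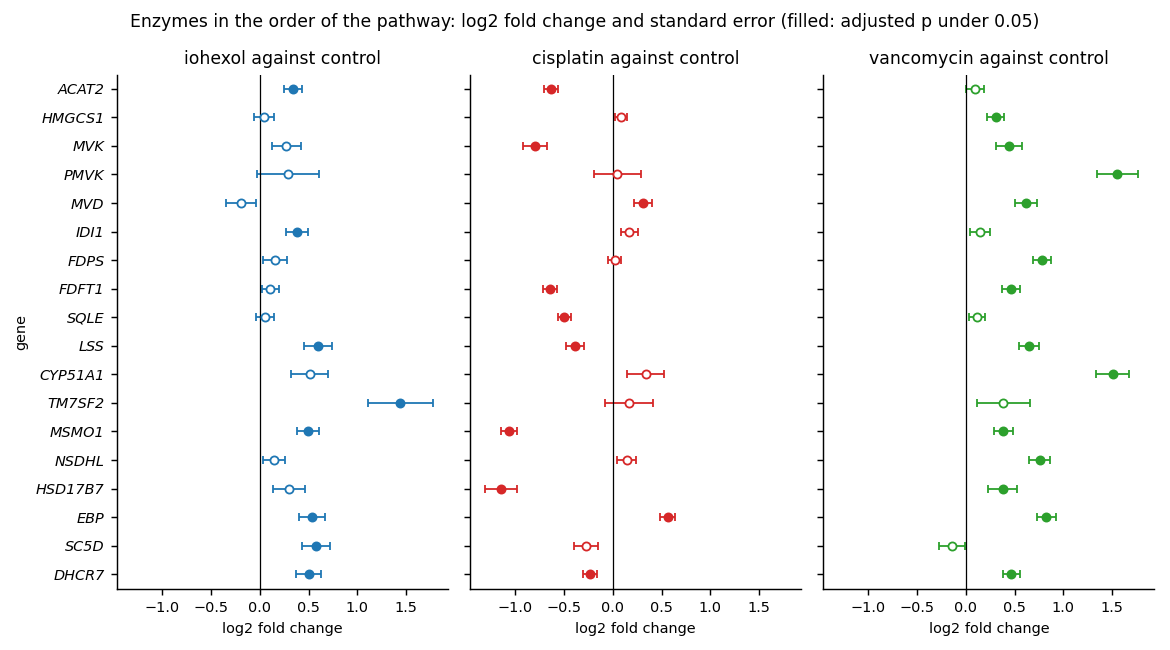
Log2 fold change against control (points, bars are 1 standard error) of the 18 enzymes in the order of the pathway, for iohexol, cisplatin and vancomycin (3 samples against 3 each). Filled points passed at an adjusted p under 0.05: 8 to the right of 0 with iohexol (11.2% of all genes), 2 to the right and 8 to the left with cisplatin (29.2% and 30.6%), and 13 to the right with vancomycin (29.0%).

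The SREBP system was the group in which cisplatin lowered all 5 genes, where 30.6% of all genes fell, with a median log2 fold change of -1.04 against 0.01 for all genes. SREBF2 (chr22:41833079-41907308), which encodes the SREBP that drives cholesterol genes, had 237, 261 and 269 CPM in control, 328, 333 and 291 with iohexol, 134, 129 and 129 with cisplatin and 319, 287 and 335 with vancomycin. All cisplatin samples were far below the control samples, and all iohexol and vancomycin samples were above them. Its log2 fold changes were 0.33 ± 0.09 (edgeR adjusted p = 0.0214), -0.97 ± 0.06 (adjusted p = 4.77e-10) and 0.25 ± 0.09 (adjusted p = 0.018), the last not passing with library size alone (adjusted p = 0.092).
SREBF1 (chr17:17810399-17837002), whose SREBP forms serve fatty acid genes as well, had 117, 129 and 138 CPM in control, 174, 179 and 129.7 with iohexol, 57.9, 57.3 and 63.9 with cisplatin and 126, 134 and 144 with vancomycin. Cisplatin samples again lay below all others, and iohexol replicate 3 lay among the control samples. SREBF1 changed by log2 values of 0.35 ± 0.12 (edgeR adjusted p = 0.0644), -1.10 ± 0.07 (adjusted p = 1.02e-09) and 0.03 ± 0.09 (adjusted p = 0.773). Without iohexol replicate 3, SREBF1 was higher with iohexol by 0.49 (edgeR adjusted p = 0.000215). With all samples its iohexol change also passed by DESeq2 (adjusted p = 0.0477), and by edgeR with library size alone (adjusted p = 0.0333), with no filter on low counts (adjusted p = 0.0243) and in the fit of all 12 samples (adjusted p = 0.0237). SREBF1 overlaps RAI1 on the opposite strand, which had 0.894 times its counts. RAI1 changed by -1.74 with cisplatin, and did not pass with iohexol (-0.09, edgeR adjusted p = 0.694) or vancomycin (0.19, adjusted p = 0.122).

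INSIG1 and INSIG2, the endoplasmic reticulum proteins that retain SCAP, fell with cisplatin and rose with vancomycin. INSIG1 (chr7:155297776-155310235) had 126, 124 and 117 CPM in control, 119, 107 and 115 with iohexol, 60.5, 59.5 and 56.9 with cisplatin and 272, 317 and 273 with vancomycin. Iohexol samples overlapped the control samples, while those of the other 2 drugs lay apart on opposite sides. For INSIG1 the log2 fold changes were -0.09 ± 0.09 (edgeR adjusted p = 0.521), -1.05 ± 0.07 (adjusted p = 4.3e-10) and 1.19 ± 0.09 (adjusted p = 6.32e-11).
INSIG2 (chr2:118088452-118110997) had 34.0, 32.9 and 28.0 CPM in control, 36.9, 38.8 and 45.2 with iohexol, 14.7, 15.3 and 16.1 with cisplatin and 66.1, 71.9 and 56.9 with vancomycin. The 4 groups did not overlap. Its log2 fold changes were 0.37 ± 0.12 (edgeR adjusted p = 0.0476), -1.04 ± 0.11 (adjusted p = 1.85e-07) and 1.00 ± 0.11 (adjusted p = 6.46e-08), and the iohexol change did not pass when any 1 of the 6 samples was left out.

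SCAP, the sterol sensor that escorts SREBPs, had 68.1, 77.2 and 68.9 CPM in control, 75.8, 73.0 and 62.8 with iohexol, 50.3, 52.4 and 52.5 with cisplatin and 57.5, 53.3 and 60.6 with vancomycin. Cisplatin and vancomycin samples were all below the control samples, and iohexol samples overlapped them. SCAP changed by -0.47 ± 0.07 with cisplatin and -0.36 ± 0.10 with vancomycin (edgeR adjusted p = 3.27e-05 and 0.00281).

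MYLIP, also called IDOL, a ubiquitin ligase that removes lipoprotein receptors and an LXR target, took its own course. MYLIP (chr6:16129125-16148248) had 8.06, 8.72 and 6.78 CPM in control, 13.7, 14.1 and 12.0 with iohexol, 17.7, 14.6 and 18.3 with cisplatin and 3.00, 3.92 and 4.31 with vancomycin. Iohexol and cisplatin samples were all above the control samples and vancomycin samples all below. MYLIP changed by log2 values of 0.78 ± 0.15 (edgeR adjusted p = 0.00368), 1.10 ± 0.14 (adjusted p = 1.99e-06) and -1.11 ± 0.20 (adjusted p = 4.54e-05). STARD4, which carries sterol between membranes, rose by 0.46 ± 0.08 with cisplatin and 0.30 ± 0.11 with vancomycin, the latter not passing with library size alone (adjusted p = 0.0865).

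ABCA1 and APOE, both known as LXR targets, moved in opposite directions. ABCA1 (chr9:104781002-104928237), the transporter that loads cholesterol onto apolipoproteins, was lower with each drug. It had 389, 415 and 417 CPM in control, 172, 204 and 204 with iohexol, 159, 157 and 160.5 with cisplatin and 339, 279.98 and 314 with vancomycin. Every treated sample was below every control sample, most of all with cisplatin and least with vancomycin. The log2 fold changes were -1.06 ± 0.09 (edgeR adjusted p = 9.01e-06), -1.36 ± 0.06 (adjusted p = 1.73e-12) and -0.43 ± 0.09 (adjusted p = 0.000235).

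APOE (chr19:44905754-44909393), the apolipoprotein of cholesterol-rich particles, was higher with each drug. It had 46.2, 60.2 and 59.4 CPM in control, 132, 115 and 80.5 with iohexol, 81.4, 81.4 and 87.3 with cisplatin and 678, 844 and 769 with vancomycin. All treated samples exceeded the control samples, and those of vancomycin stood far above the rest. The log2 fold changes were 1.00 ± 0.17 (edgeR adjusted p = 0.00125), 0.59 ± 0.09 (adjusted p = 1.7e-05) and 3.74 ± 0.11 (adjusted p = 4.33e-18), the last a 13.4-fold higher level.
Macrophages are a rich source of APOE, so 10 macrophage markers were read beside it. Their summed level was 14.6 to 17.2 CPM in control and 14.2 to 19.8 CPM with vancomycin, most of it CSF1R, with C1QA at 0 in every library and TYROBP at 0 in the control and vancomycin libraries. Of the 3 markers tested with vancomycin, 1 passed as higher and none as lower, at a median log2 fold change of 0.76 (29.0% of all genes rose). The marker that passed was CD14, which rose from 0.79 ± 0.226 to 2.84 ± 0.893 CPM (log2 fold change 1.8). ITGAM stood at 1.03 ± 0.342 CPM in control and 1.82 ± 0.300 with vancomycin and did not pass.

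NR1H2 and NR1H3 encode the LXR receptors. NR1H2 (chr19:50329653-50382982), the widely expressed one, had 54.5, 60.05 and 68.5 CPM in control, 75.2, 76.9 and 58.5 with iohexol, 84.1, 85.2 and 86.1 with cisplatin and 83.9, 98.4 and 105 with vancomycin. Cisplatin and vancomycin samples were all above the control samples, and iohexol replicate 3 fell among them. The log2 fold changes with cisplatin and vancomycin were 0.48 ± 0.08 and 0.61 ± 0.10 (edgeR adjusted p = 4.99e-05 and 2.44e-05). With iohexol NR1H2 stood at 0.22 ± 0.13 (adjusted p = 0.246), and at 0.34 ± 0.10 without iohexol replicate 3 (adjusted p = 0.0146). NR1H3 rose with vancomycin, from 3.58 ± 0.15 to 8.12 ± 1.26 CPM (log2 fold change 1.14 ± 0.19). It overlaps ACP2 on the opposite strand, which had 4.31 times its counts and did not pass with vancomycin (-0.25, edgeR adjusted p = 0.0886).

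SCD and FASN, which supply fatty acids and are shared SREBP targets, both fell with cisplatin and moved in opposite directions with vancomycin. SCD (chr10:100347124-100364834) had 750.5, 729 and 724 CPM in control, 1162, 1192 and 1123 with iohexol, 313, 282 and 315 with cisplatin and 962, 871 and 892 with vancomycin. The 4 groups did not overlap. SCD changed by log2 values of 0.68 ± 0.07 (edgeR adjusted p = 6.51e-05), -1.28 ± 0.06 (adjusted p = 5.24e-12) and 0.27 ± 0.08 (adjusted p = 0.0083).
FASN (chr17:82078333-82098332) had 503, 596 and 613 CPM in control, 616, 652 and 499 with iohexol, 396, 398 and 397 with cisplatin and 379, 309 and 366 with vancomycin. Iohexol samples overlapped the control samples and those of the other 2 drugs were all below them. The log2 fold changes were 0.07 ± 0.11, -0.52 ± 0.07 and -0.74 ± 0.10 (edgeR adjusted p = 0.72, 2.25e-06 and 6.22e-07).

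**Figure D3:**
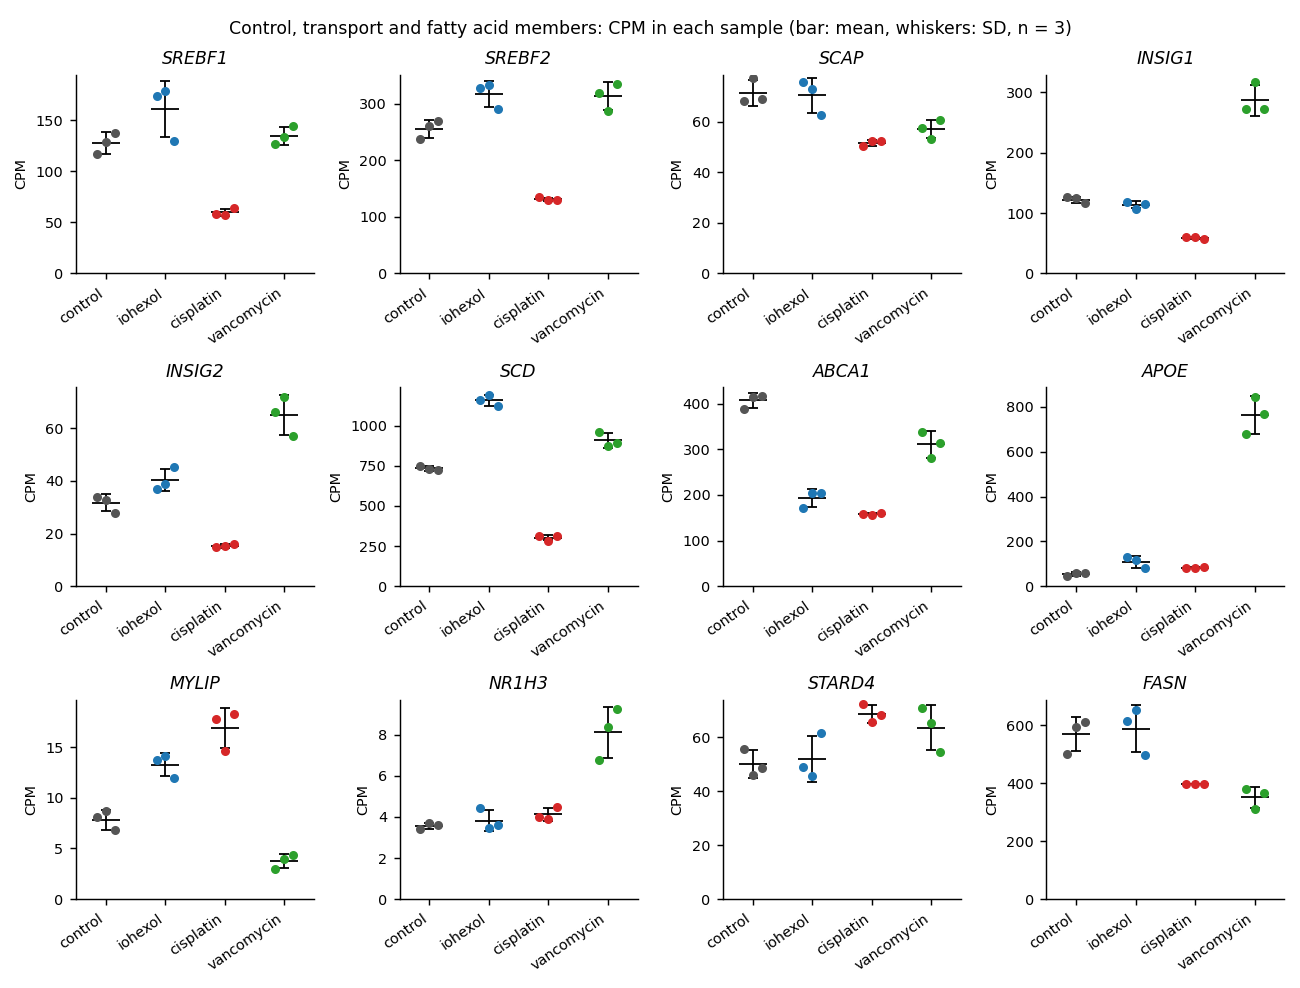
CPM in each of the 12 samples (points, with mean and SD, n = 3 per group) for 12 members outside the synthetic enzymes, each panel with its own axis from 0. INSIG1 and INSIG2 are lowest with cisplatin and highest with vancomycin, ABCA1 is below control with each drug, and APOE reaches 678 to 844 CPM with vancomycin.

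Side by side, EBP and APOE were higher and ABCA1 lower in each of the 3 comparisons. LSS, MSMO1, DHCR7, SREBF2, INSIG2 and SCD were higher, lower and higher with iohexol, cisplatin and vancomycin, and MYLIP was higher, higher and lower.

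The drugs were also set directly against each other in 1 fit of all 12 samples, which tests the difference between their effects. Iohexol stood above cisplatin for 19 of 31 members and below for 4 (27.9% and 26.0% of all 17073 genes), with a median difference of 0.53 on the log2 scale against 0.00 for all genes. SCD differed most, by 1.93 ± 0.07, followed by MSMO1 (1.54 ± 0.11), SREBF1 (1.43 ± 0.11) and HSD17B7 (1.43 ± 0.16). All 5 SREBP system genes were higher with iohexol. Lower with iohexol than with cisplatin were MVD, MYLIP, NR1H2 and STARD4. Fewer members were lower in some alternatives, the replicate block among them.

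Cisplatin stood below vancomycin for 23 members and above for 1 (34.7% and 30.0% of all genes), with a median difference of -0.81 against -0.03 for all genes. The differences were -3.19 ± 0.14 for APOE, -2.28 ± 0.08 for INSIG1 and -2.08 ± 0.12 for INSIG2, and the single member above was MYLIP (2.17 ± 0.16), where scaling by library size alone put 4 members above (45.8% of all genes) and a separate fit of the 6 samples 2 (35.2%). All 9 of the late enzymes that passed were lower with cisplatin.

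Iohexol and vancomycin were the closest of the 3 pairs by median difference, -0.23 against 0.02 for all genes, with 15 members lower with iohexol and 7 higher (29.0% and 27.6% of all genes), or 11 higher with library size alone as the scale (39.1% of all genes). Lower with iohexol were all 4 LXR group genes tested, among them APOE (-2.81 ± 0.14) and NR1H3 (-1.09 ± 0.18), and INSIG1 (-1.34 ± 0.08), PMVK (-1.33 ± 0.24) and CYP51A1 (-1.05 ± 0.16). MYLIP was higher with iohexol by 1.83 ± 0.16, and FASN by 0.74 ± 0.10. SREBF2, MSMO1 and DHCR7 did not pass, with 95% intervals of -0.14 to 0.18, -0.15 to 0.25 and -0.23 to 0.18, which leave small differences possible.

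Further genes of the pathway outside the 32 were read for context, against the shares of all genes called higher and lower, which were 11.2% and 9.77% with iohexol, 29.2% and 30.6% with cisplatin and 29.0% and 28.8% with vancomycin. Medians over all genes were 0.01, 0.01 and -0.01. In the branches that use isoprenoids for prenylation, dolichol and ubiquinone, 1 of 14 rose and 2 fell with iohexol, 4 rose and 3 fell with cisplatin, and 2 rose and 3 fell with vancomycin. These counts lay near or below those shares, and the list's median log2 fold changes were -0.06, 0.01 and -0.10 with iohexol, cisplatin and vancomycin. PDSS2, a subunit of the ubiquinone side-chain synthase, fell by 2.15 on the log2 scale with cisplatin, from 9.85 ± 0.284 to 2.21 ± 0.742 CPM, and RCE1, which trims prenylated proteins, rose by 0.69 with cisplatin and 1.18 with vancomycin. ICMT, which methylates prenylated proteins, rose by 0.45 with iohexol and fell by 0.52 with vancomycin. With iohexol PDSS1 fell by 0.51, and with vancomycin NUS1, of dolichol synthesis, fell by 0.57. FNTB rose by 1.22 with vancomycin, and shares 52.6% of its 31-base words with a readthrough gene.

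Among 15 other late sterol enzymes and SREBP partners, 3 rose and none fell with iohexol, 3 rose and 10 fell with cisplatin, and 4 rose and 9 fell with vancomycin. Only the lower counts with cisplatin and vancomycin lay far above the shares of 30.6% and 28.8% of all genes, and the medians were 0.01, -0.31 and -0.34. PAQR3, a Golgi anchor of SCAP and SREBP, and SPRING1, a factor of the SREBP protease, rose with each drug, by 0.62, 0.24 and 0.49 and by 0.52, 0.29 and 0.63. The SREBP protease gene MBTPS2 fell by 0.68 with cisplatin and 0.63 with vancomycin, and the ubiquitin ligase RNF145 fell by 0.67 with cisplatin. FAXDC2 rose by 1.17 with iohexol, 0.66 with cisplatin and 1.79 with vancomycin.

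Of the genes for lysosomal exit, transfer and storage, 2 rose and 1 fell of 14 with iohexol, 3 rose and 4 fell of 15 with cisplatin, and 7 rose and 2 fell of 15 with vancomycin. With iohexol and cisplatin these counts lay near the shares of all genes, and the higher count with vancomycin lay above the 29.0% of all genes. The medians were 0.07, 0.06 and 0.25. NPC2, the soluble carrier of lysosomal cholesterol, rose by 1.03 with vancomycin, LIPA, the acid lipase, by 0.71, and NPC1, the membrane exporter, by 0.54 and, with iohexol, by 0.42. GRAMD1A, a sterol carrier of the endoplasmic reticulum, rose by 0.50 with iohexol. NCEH1, a cholesteryl ester hydrolase, fell by 0.91 with iohexol and 2.02 with vancomycin, from 546 ± 32.6 CPM to 287 ± 40.7 and 139 ± 9.46. LIPA fell by 0.58, SCP2 by 0.49 and GRAMD1C by 1.37 with cisplatin.

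The 4 genes tested of lipoprotein receptors and a receptor-associated protein (LRPAP1) all rose with vancomycin and 3 of them fell with cisplatin, whereas 1 fell with iohexol. Of all genes, 29.0% rose with vancomycin, 30.6% fell with cisplatin and 9.77% fell with iohexol, and 1 of 4 is too few to set against the last share. LRP1, a large endocytic receptor that takes up APOE particles, fell by 1.52 with cisplatin and rose by 0.92 with vancomycin. LRP8, an APOE receptor, changed by -0.43, -1.65 and 0.60, and SCARB1, the HDL receptor, fell by 0.49 with cisplatin and rose by 0.57 with vancomycin.
Of 7 other LXR genes and oxysterol enzymes, 1 rose and 1 fell with iohexol, 1 rose and 3 fell with cisplatin, and 5 rose with vancomycin. The counts with iohexol were near the shares of all genes (11.2% and 9.77%), the 3 that fell with cisplatin stood against 30.6% and the 5 that rose with vancomycin against 29.0%, and the medians were -0.11, -0.13 and 0.48. APOC1, the neighbour of APOE, rose by 1.28 with cisplatin and 2.09 with vancomycin, PLTP, the phospholipid transfer protein, fell by 0.56 and rose by 1.73, and RXRA, the partner receptor of LXR, fell by 1.29 and rose by 0.45. SMPDL3A rose by 0.96 and CYP27A1 fell by 0.50 with iohexol.
Of 12 other fatty acid genes, 3 rose and 2 fell with iohexol, none rose and 10 fell with cisplatin, and 6 rose and 4 fell with vancomycin. The lower count with cisplatin lay far above the 30.6% of all genes, that with vancomycin was near the 28.8%, and the higher count with vancomycin was above the 29.0%. ACACA, which commits acetyl-CoA to fatty acids, fell by 1.11 with cisplatin, ELOVL5 by 0.71, SLC25A1 by 0.59 and FADS2 by 1.65. FADS2 rose by 1.64 and the NADPH source ME1 by 0.96 with vancomycin, and GPAM fell by 0.92. ME1 rose by 0.70 and LPIN1 by 0.37 with iohexol, and ELOVL5 fell by 0.37.

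**Figure D4:**
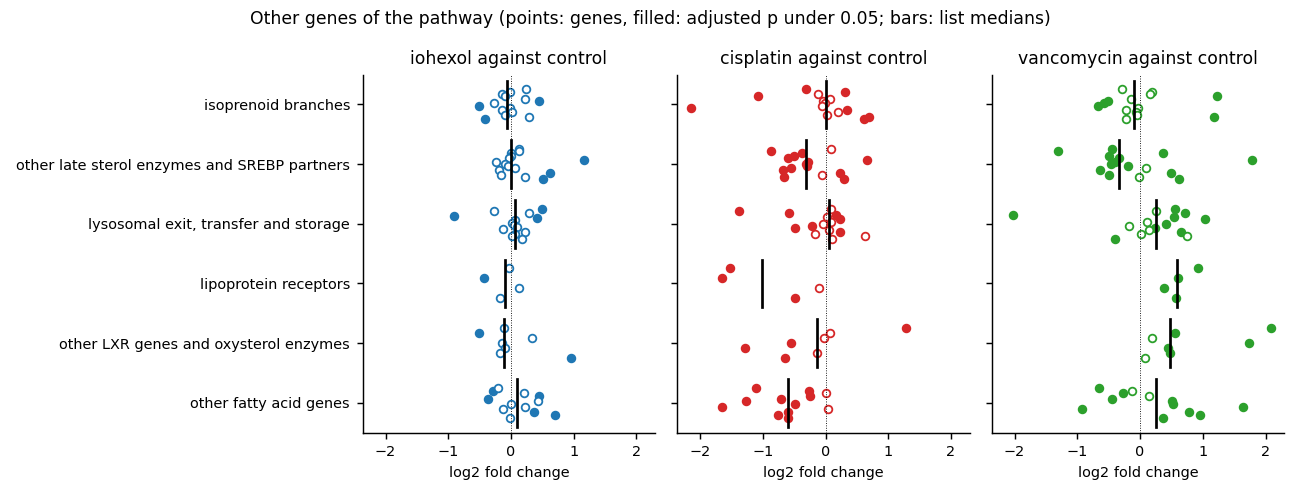
Log2 fold change against control of single genes (points, filled where the adjusted p was under 0.05) in 6 lists of other pathway genes, for each drug (3 samples against 3), with each list's median as a bar. The medians of the lipoprotein receptor list are -0.10, -1.01 and 0.58, and those of the other fatty acid genes 0.10, -0.59 and 0.25, with iohexol, cisplatin and vancomycin.

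The cell type of the label was checked with 18 markers of proximal tubule and renal epithelium. Renal epithelial genes were expressed in control cells, with PAX8 at 372 ± 42.2 CPM and GGT1 at 189.5 ± 28.2 CPM, whereas the mature proximal tubule markers LRP2 and SLC22A6 were at 0 and HNF4A at 0.0418 ± 0.0725 CPM. The summed level of the 18 ranged over 2614 to 2745 CPM in control, and over 1999.7 to 2275, 1992 to 2062 and 3236 to 3336 CPM under iohexol, cisplatin and vancomycin. Fibroblast markers summed to 116 to 129.7 CPM in control and 242 to 278 with vancomycin, mostly LUM, with COL1A2 at 0 in both groups. Of the 5 tested with vancomycin, 4 rose and none fell, at a median log2 fold change of 1.12 (29.0% of all genes rose). LUM went from 79.8 ± 11.2 to 182 ± 15.8 CPM, DCN from 12.3 ± 0.401 to 30.5 ± 3.46 and PDGFRB from 0.607 ± 0.113 to 1.36 ± 0.276, and the fourth was COL1A1. Endothelial markers summed to at most 4.28 CPM in any library. These levels moved with the drug groups, their part in the sterol gene results was not tested, and in such bulk samples fewer cells of a kind and less RNA per cell cannot be told apart.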

How the data were processed

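RNA of 12 HK-2 samples had been sequenced at a service provider after poly(A) selection. The authors deposited 1 table of raw counts per gene, whole numbers that were not scaled, with 1 column per sample. The submitters' processing notes list CASAVA 1.8, fastp, HISAT2 2.0.5, featureCounts 1.5.0-p3 and DESeq2 1.20.0, without roles. The build, annotation release and strand setting are not given in the sources used here; 58698 of 58735 genes had the positions of GENCODE release 29 (GRCh38).

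Columns were matched to samples by their sample numbers in the labels, and all were used. Drug and control samples were compared, 3 against 3, by edgeR 4.0.16 (R 4.3.3) with TMM scaling, filterByExpr (minimum count 10, minimum total 15), the quasi-likelihood F test and Benjamini-Hochberg adjustment over all genes tested. edgeR was used because the values are counts, in place of the limma test of the study's methods. Drugs were compared by contrasts of 1 fit of all 12 samples. A gene passed at an adjusted p under 0.05, and a DEG also had a log2 fold change beyond 1. The standard error was the log2 fold change divided by the square root of F, and 95% intervals are 1.96 standard errors to each side. CPM used the total count times the TMM factor (0.885 to 1.13), and FPKM the deposited gene length in bases. The floors (3 counts) cover counting error only, while the 95% intervals carry the spread between samples.

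The members and all gene lists, including the markers of renal epithelium, macrophages, fibroblasts and endothelium, were chosen with earlier results of these data known. Values of all samples were given for SREBF1, SREBF2, INSIG1, INSIG2, ABCA1, APOE and up to 4 members per drug and direction with the smallest p among those that passed; of the other lists, up to 3 genes per list and drug with the smallest p were named. PMVK, LSS and TM7SF2, and further values of genes so named, were added after their values were seen. A few genes of the lists that enter the counts are not reported here by name. Tested on simulated data with 200 changed genes, the edgeR step recovered 194, 196 and 195 of them for iohexol, cisplatin and vancomycin. Other genes called numbered 13, 9 and 7 among 15677, 15835 and 15799 tested. Recovery in the real samples, where the sizes of change and the spread may differ, was not tested.

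Alternatives were DESeq2 1.42.0, limma-voom (limma 3.58.1), RLE factors, library size only, no filter, at least 10 counts in every sample, 1 fit of all 12 samples, a replicate block, and leaving out each sample; for the direct drug comparisons, leaving out samples was chosen after seeing the data. Promoter windows came from RefSeq, and 31-base words at steps of 5 from GENCODE transcripts were searched in all other genes.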

Additional observations from a re-analysis of the deposited data

Results flagged for a closer look

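The results below concern members that passed against control in opposite directions with 2 drugs and whose difference between those drugs itself passed (edgeR contrast, adjusted p under 0.05). There were 7 such members between iohexol and cisplatin, 1 between iohexol and vancomycin and 11 between cisplatin and vancomycin, of 31 members tested. The same rule held for 5.46%, 4.72% and 14.2% of all genes tested in the comparisons concerned.

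Between iohexol and cisplatin, the log2 differences (iohexol minus cisplatin) were 1.93 for SCD, 1.54 for MSMO1, 1.39 for INSIG2, 1.28 for SREBF2, 0.96 for LSS, 0.95 for ACAT2 and 0.72 for DHCR7. Each of these was higher with iohexol than in the control group and lower with cisplatin. MYLIP was 1.83 higher with iohexol than with vancomycin.

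Between cisplatin and vancomycin, the log2 differences (cisplatin minus vancomycin) were -2.28 for INSIG1, -2.08 for INSIG2, -1.58 for SCD, -1.56 for HSD17B7, -1.49 for MSMO1, -1.28 for MVK, -1.26 for SREBF2, -1.15 for FDFT1, -1.07 for LSS and -0.74 for DHCR7. MYLIP was the exception, at 2.17. With 3 samples in a group, no sample was tested as an outlier of its group.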

How the results depend on the processing

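Leaving out 1 sample at a time changed the iohexol results most: between 6 and 17 members were higher (13 with all samples), 1 member stayed lower each time, and 1027 to 2377 of all genes were higher and 822 to 2167 lower. The low member counts came without control replicate 2 (6), control replicate 3 (7), iohexol replicate 1 (7) or iohexol replicate 2 (8), and the high one without iohexol replicate 3. ACAT2, IDI1, SREBF2 and INSIG2 lost their iohexol calls in several of these fits (INSIG2 in all 6) and in the block fit below. With vancomycin, HSD17B7, STARD4, SREBF2 and MVK, and with cisplatin DHCR7 (without cisplatin replicate 2, and in the fit of all 12 samples), lost their calls in at least 1 such fit. One fit of all 12 samples raised the number of all genes lower with iohexol from 1529 to 2294. In the direct comparison of those drugs, the number of members lower with iohexol than with cisplatin was 2 to 3 in place of 4 in some alternatives. The replicate block was among these.

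Scaling by library size alone gave 11 members higher with cisplatin in place of 6 and a median of -0.05 in place of -0.27, 11 members higher with iohexol than with vancomycin in place of 7 (39.1% of all genes), and 4 higher with cisplatin than with vancomycin in place of 1 (45.8% of all genes; 2 in a separate fit of the 6 samples). It also reversed SREBF1 with vancomycin from 0.03 to -0.044, and leaving out 1 sample gave -0.028 (without control replicate 1) to 0.081 (without control replicate 3), with -0.011 without vancomycin replicate 3; none of these passed. The cause of these changes was not tested.

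The replicate numbers did not pair the samples: deviations of same-numbered samples had correlations of -0.184 to 0.0517 (control and iohexol), 0.0113 to 0.029 (control and cisplatin) and 0.0432 to 0.103 (control and vancomycin). With the replicate block, 9 members were higher and 1 lower with iohexol (1181 and 915 of all genes), 6 higher and 17 lower with cisplatin (4778 and 4991 of all genes), and 21 higher and 4 lower with vancomycin (4858 and 4821 of all genes), and 2 members were lower with iohexol than with cisplatin.

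Over the 31 members, 3 drugs and the settings that kept all samples, 717 of 744 calls or lacks of one were kept, 15 calls were lost and 12 gained; over the fits that left out 1 sample, 509 of 558 were kept, 40 lost and 9 gained, and no call changed direction. With all samples, SREBF1 gained 4 calls with iohexol and CYP51A1 gained 1 (fit of all 12 samples). With cisplatin HMGCS1, IDI1, FDPS, CYP51A1 and NSDHL gained calls with library size alone, and SC5D did so with no filter and with the block. Tested members with a mean under 10 CPM in control, for which low counts limit the precision, were NR1H3, CYP51A1, TM7SF2, PMVK, MYLIP and HSD17B7, and ABCG1 was below detection.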
